A study of Mus musculus with 24 samples.

Results

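The microRNAs mmu-miR-99a-5p, mmu-miR-100-5p and mmu-miR-125b-5p are 3 of the 1881 mouse miRNAs measured on an array series of sorted liver cells, and were picked by their names in the deposited tables. They were chosen because earlier results of these arrays showed all 3 to be higher in periportal than in pericentral zones, so their levels along that axis are given as a description without a test. The series holds tetraploid hepatocytes of 3 untreated male C57BL/6J mice aged 3 months, fed freely and kept on a reversed light cycle. Cells carrying CD45 or CD31, and dead cells, were removed, and the rest were sorted on a pair of surface markers, CD73 for the pericentral end of the lobule and E-cadherin for the periportal end. This gave 8 populations per mouse of 50000 cells each, from zone 1 (most pericentral) to zone 8 (most periportal). The position in the lobule is thus inferred from 2 surface proteins, each population is a pool of cells of 1 animal, and hepatocytes of other ploidies were sorted out.

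MicroRNAs are short RNAs that repress messenger RNAs by pairing through their seed, bases 2 to 8. miR-125 is the vertebrate relative of the worm miRNA lin-4, and miR-99 and miR-100 belong to an old family whose known targets include the growth kinase mTOR. In vertebrates they lie in clusters that are copies of each other, each with a miR-99 or miR-100 gene, a let-7 gene and a miR-125 gene. In the liver lobule, genes of hepatocytes are expressed in gradients between the central vein and the portal tract.

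The mature sequences show which miRNAs the signals could come from. They are from RefSeq on GRCm38.p6, 5′ to 3′, with the seed in capitals; the 3 miRNAs and the 2 relatives with the same seeds in the third cluster are shown.
miR-125b-5p: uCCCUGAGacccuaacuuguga
miR-125a-5p: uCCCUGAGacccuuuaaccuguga
miR-99a-5p: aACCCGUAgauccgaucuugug
miR-100-5p: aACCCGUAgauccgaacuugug
miR-99b-5p: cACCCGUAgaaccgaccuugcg
miR-99a-5p and miR-100-5p share a seed and differ at 1 of 22 positions, U16A, counted from 1 at the 5′ end with the base of miR-99a-5p first. miR-99b-5p differs from miR-99a-5p at 4 positions, A1C, U11A, U16C and U21C. miR-125b-5p and miR-125a-5p have the same seed and the same first 13 bases, and are 22 and 24 bases long.

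miR-100-5p comes from Mir100 (chr9:41531437-41531458, plus strand) and miR-99a-5p from Mir99a (chr16:77598940-77598961, plus strand). miR-125b-5p has the same sequence from 2 genes, Mir125b-1 (chr9:41581940-41581961, plus strand) and Mir125b-2 (chr16:77646279-77646300, plus strand), so its signal cannot be split between the loci. Mir100, Mirlet7a-2 and Mir125b-1 lie inside the long non-coding RNA gene Mir100hg in the same annotation. Mir99a, Mirlet7c-1 and Mir125b-2 neighbour each other outside the annotated span of the similarly named Mir99ahg. The hairpins listed for these loci are shown with the mature arms in capitals, since both arms were on the array.
Mir100: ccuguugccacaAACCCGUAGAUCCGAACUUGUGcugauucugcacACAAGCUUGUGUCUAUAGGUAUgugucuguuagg
Mir125b-1: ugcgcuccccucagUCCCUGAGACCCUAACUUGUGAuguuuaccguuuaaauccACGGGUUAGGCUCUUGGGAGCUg
Mir99a: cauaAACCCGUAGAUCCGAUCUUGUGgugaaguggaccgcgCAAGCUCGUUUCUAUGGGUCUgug

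Each of the 24 arrays gave between 248 and 368 detected miRNAs and a summed signal of 57773 to 138147 intensity units. All 4 hepatocyte miRNAs looked for, miR-122-5p, miR-122-3p, miR-192-5p and miR-194-5p, were detected on all 24 arrays. Of 20 miRNAs listed for other liver cells, none of the 5 leukocyte, 6 stellate cell and 2 erythroid ones was detected on any array. Of the 5 biliary ones only miR-200b-3p was detected, on 1 array, the most periportal zone 8 of mouse 3. Of the 2 endothelial ones only miR-126a-3p was detected, on 9 arrays of zones 5 to 8 and 7 of zones 1 to 4. Each slide held 1 mouse, with zones 5 to 8 in row 2 of its arrays and zones 1 to 4 in row 1. In each row the zones lay in columns 1 to 4 in order, the same in every mouse. Zone and slide position therefore cannot be told apart. Each step between neighbouring zones is a step in column, and that between zones 4 and 5 is one in row as well. Mouse and slide cannot be told apart either.

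mmu-miR-125b-5p was brighter in zones 5 to 8 than in zones 1 to 4 in each mouse. Its scaled signal, the deposited signal brought to a common level across arrays, was 77.8, 77.3, 67.5, 72.5, 172.7, 200.0, 204, 197 in zones 1 to 8 of mouse 1. In mouse 2 the 8 zones had 76.8, 96.2, 102.4, 75.1, 142.3, 163.7, 188.6 and 191.7. In mouse 3 they had 79.7, 72.6, 78.4, 77.1, 144.8, 175.2, 215.8 and 215.2. The lowest of the 12 arrays of zones 5 to 8 (142) lay above the highest of the 12 arrays of zones 1 to 4 (102), so these groups did not overlap. The log2 difference between zones 5 to 8 and zones 1 to 4 was 1.39, 0.97 and 1.27 in mice 1 to 3, with a mean of 1.21 ± 0.21 (SD, n = 3 mice), a fold of 2.31. Between the ends of the axis, zone 8 exceeded zone 1 by 1.36 ± 0.06 log2 units, a fold of 2.57. Since each population is a pool, more cells holding the miRNA and more of it per cell cannot be told apart, here or below.

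mmu-miR-99a-5p, the member of the chromosome 16 locus, was also brighter in zones 5 to 8 in each mouse. Mouse 1 had scaled signals of 37.2, 29.6, 28.9, 32.6, 63.1, 74.7, 75.7 and 69.4 in zones 1 to 8. Mouse 2 had 20.3, 37.3, 37.0, 25.5, 51.6, 60.6, 70.5 and 71.5. Mouse 3 had 35.5, 34.5, 36.0, 34.8, 55.4, 67.4, 83.8 and 85.2. The arrays of zones 5 to 8 ran from 51.6 to 85.2 and those of zones 1 to 4 from 20.3 to 37.3, again without overlap. The lowest values of zones 1 to 4 were on the zone 1 and zone 4 arrays of mouse 2. let-7a-5p was also low there (446 and 464, against 587 to 888 on the other 10 arrays of zones 1 to 4). So were miR-192-5p (599.9 and 690, against 921.3 to 1204) and miR-122-5p (6778 and 8018, against 8904 to 11310). miR-194-5p was below the other 10 arrays only in zone 1 (289.7) and miR-122-3p only in zone 4 (29.73). miR-125b-5p was not low there (76.8 and 75.1). The log2 difference between zones 5 to 8 and zones 1 to 4 was 1.15, 1.12 and 1.03 in mice 1 to 3, with a mean of 1.10 ± 0.06 (SD, n = 3 mice), a fold of 2.14. Zone 8 exceeded zone 1 by 0.90, 1.81 and 1.26 log2 units, the widest spread over mice of the 3 miRNAs (mean 1.33 ± 0.46). The 1.81 of mouse 2 uses its low zone 1 array.

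mmu-miR-100-5p, from the chromosome 9 locus, had the largest measurement error of the 3 miRNAs. In zones 5 to 8 every array (12) detected it, and in zones 1 to 4 11 of 12 did, the exception being zone 2 of mouse 1. The error given in the deposited files was a median of 17.1% of the signal for miR-100-5p, against 8.34% for miR-99a-5p and 8.74% for miR-125b-5p. In mouse 1 the scaled signals of miR-100-5p were 3.80 in zone 1, 3.07 in zone 3, 3.65 in zone 4 and then 6.87, 7.55, 7.83 and 7.34 in zones 5 to 8. In mouse 2 zones 1 to 8 had 3.71, 4.60, 4.57, 3.38, 6.07, 7.23, 8.81 and 9.11. In mouse 3 they had 4.08, 4.12, 4.29, 4.45, 6.16, 7.75, 9.48 and 9.59. The lowest array of zones 5 to 8 (6.07) was above the highest of zones 1 to 4 (4.60). The log2 difference between zones 5 to 8 and zones 1 to 4 was 1.49, 0.94 and 0.94, with a mean of 1.12 ± 0.32 (SD, n = 3 mice), where the undetected value was set to 1.12 intensity units, the floor used for all undetected values. Without that array mouse 1 had 1.08 and the mean was 0.99 ± 0.08, a fold of 1.98. Zone 8 exceeded zone 1 by 1.16 ± 0.18 log2 units, with both zones detected in every mouse.

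**Figure D1:**
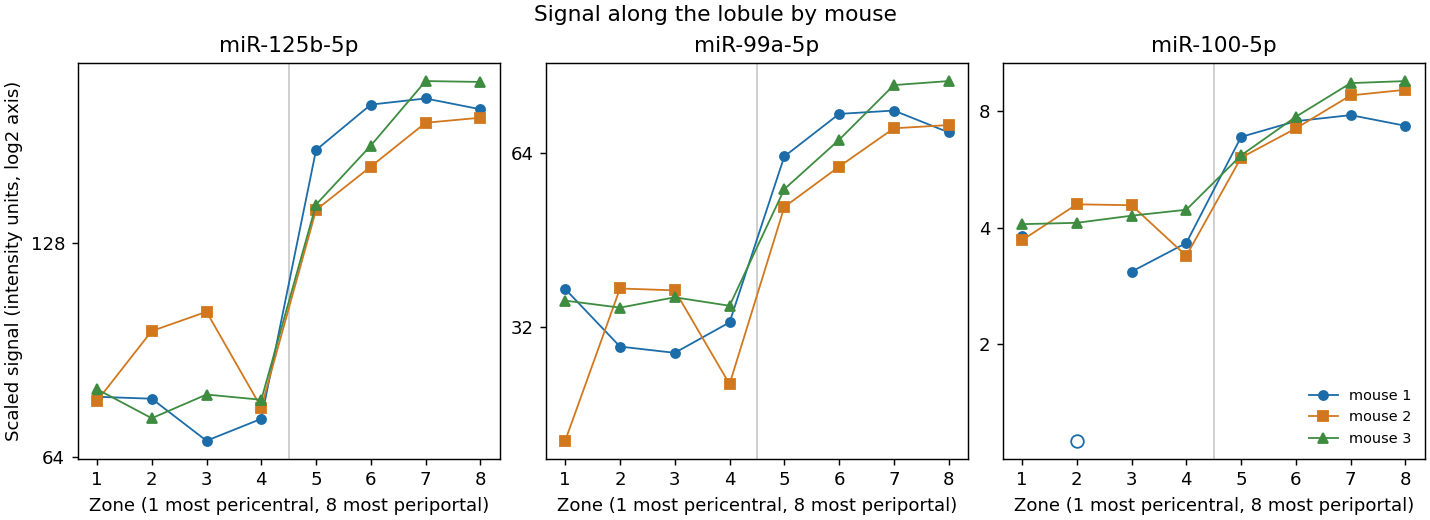
Scaled signal (intensity units, log2 axis) of each miRNA in zones 1 to 8, with 1 line per mouse; the open circle marks the array on which miR-100-5p was not detected, drawn at the floor, and the grey line marks the change of slide row. All 3 miRNAs were higher in zone 5 than in zone 4 in each mouse and had their highest mean in zone 7.

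Over all 339 miRNAs detected on at least 6 arrays, 14 (4.13%) had every array of zones 5 to 8 above every array of zones 1 to 4, and 0 (0%) the reverse. The 3 miRNAs are among the 14, as their choice for this rise implies. By the size of the difference between zones 5 to 8 and zones 1 to 4 they ranked 8 (miR-125b-5p), 9 (miR-100-5p) and 10 (miR-99a-5p) of 339, and the median difference over all tested miRNAs was -0.08 log2 units. The rank of miR-100-5p includes its undetected value at the floor. Without that array its difference was 0.99, below the 1.10 of miR-99a-5p. Above them, miR-125a-5p (rank 2) and let-7e-5p (rank 4) also have undetected values at the floor in zones 1 to 4.

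Of the steps between neighbouring zones, that between zones 4 and 5 had the highest mean. Zone 5 exceeded zone 4 by 0.88 ± 0.19 log2 units for miR-99a-5p, 0.74 ± 0.24 for miR-100-5p and 1.03 ± 0.19 for miR-125b-5p (SD, n = 3 mice), in 3 of 3 mice each. Zone 6 was higher than zone 5 by 0.25 ± 0.03, 0.24 ± 0.10 and 0.23 ± 0.04 log2 units for miR-99a-5p, miR-100-5p and miR-125b-5p, again in all 3 mice. Zone 7 was higher than zone 6 by 0.18 ± 0.15, 0.21 ± 0.14 and 0.18 ± 0.14 in the same order of miRNAs, also in all 3 mice. Zones 8 and 7 differed by less than the spread over mice, with mean differences of -0.03 ± 0.08, -0.01 ± 0.07 and -0.01 ± 0.04. In each miRNA the neighbouring zones within zones 1 to 4 differed by less than the SD over mice. For miR-100-5p the undetected zone 2 of mouse 1, at the floor, widens the SD of the steps on either side of it (-0.48 ± 1.12 and 0.50 ± 0.83).

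**Figure D2:**
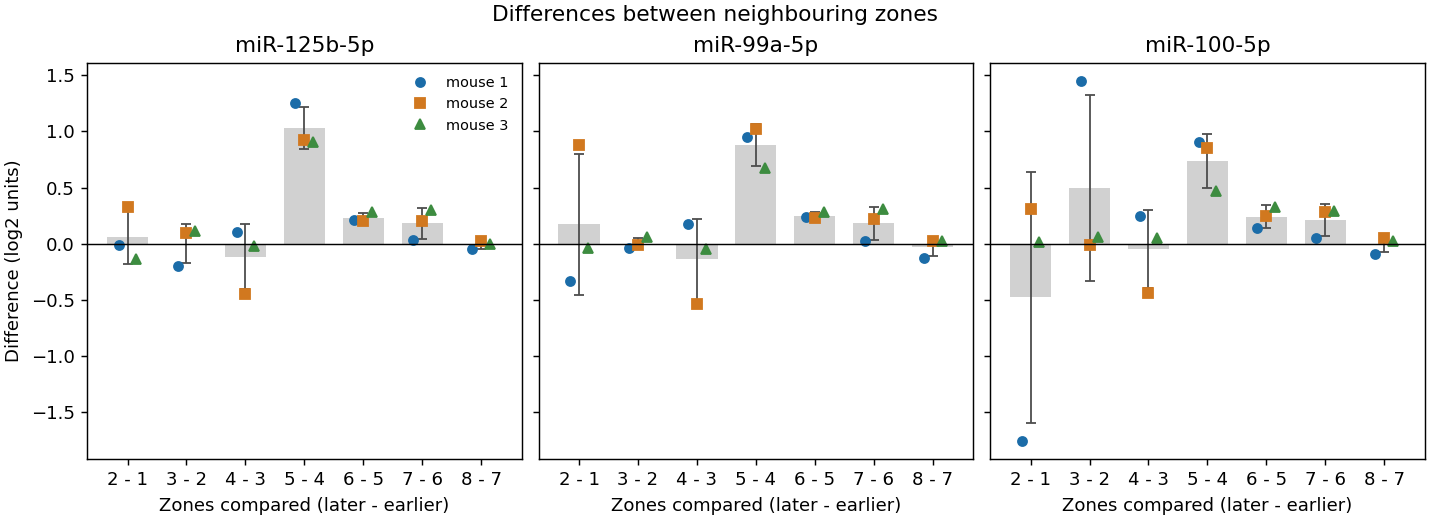
Log2 difference between each zone and the zone before it, as bars for the mean of 3 mice with the SD as error bars and 1 symbol per mouse. For each miRNA all 3 mice lie above 0 at zones 5, 6 and 7 against the zone before, and zone 5 against zone 4 has the highest mean.

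Ordered by mean level, zone 7 stood first, followed by zones 8, 6 and 5, for each of the 3 miRNAs. Zones 7 and 8, and zones 8 and 6, did not differ beyond the SD over mice, while zone 6 exceeded zone 5 and zone 5 exceeded zone 3, the highest of the other 4 zones, by more than the SD. Zones 1 to 4 had no order beyond the spread for miR-99a-5p and miR-100-5p. For miR-125b-5p zone 1 was above zone 4, the lowest, by 0.06 ± 0.04 log2 units.

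The rise inside zones 5 to 8, which lie in 1 slide row but in a column each, differed in size between mice. The slope there was 0.06, 0.15 and 0.20 log2 units per zone for miR-125b-5p in mice 1 to 3. It was 0.04, 0.16 and 0.22 for miR-99a-5p and 0.03, 0.20 and 0.22 for miR-100-5p. Mouse 1 was the flattest of the 3 mice in each miRNA. Inside zones 1 to 4 the mean slopes were 0.01 ± 0.08, 0.04 ± 0.08 and -0.02 ± 0.03 log2 units per zone for miR-99a-5p, miR-100-5p and miR-125b-5p (SD, n = 3 mice). For miR-100-5p this includes a slope of 0.13 in mouse 1, whose undetected zone 2 stands at the floor. The 5 control sequences detected on all arrays had log2 differences between zones 5 to 8 and zones 1 to 4 of -0.69 to 0.33 in single mice, and slide row and zone cannot be told apart from them.

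The sizes of the 3 changes were compared within each mouse. Per mouse, the log2 difference between zones 5 to 8 and zones 1 to 4 of miR-125b-5p minus that of miR-99a-5p was 0.24, -0.14 and 0.24, with a mean of 0.11 ± 0.22 (SD, n = 3 mice). miR-125b-5p minus miR-100-5p gave a mean of 0.09 ± 0.22 and miR-99a-5p minus miR-100-5p a mean of -0.03 ± 0.28. Each of these 3 means was smaller than the SD over mice, which with 3 mice does not show that the changes were equal. In mice 1 to 3 the pairs with miR-100-5p had -0.10, 0.04 and 0.33, and -0.35, 0.18 and 0.09. Their mouse 1 values include the array on which miR-100-5p was undetected and set to the floor. Without that array the miR-100-5p difference in mouse 1 was 1.08 instead of 1.49, so the floor adds to the spread of both pairs. The means depended on single mice: the first was 0.24 without mouse 2 and 0.05 without mouse 1 or mouse 3, the second 0.18 without mouse 1 and -0.03 without mouse 3, and the last 0.13 without mouse 1 and -0.13 without mouse 2.

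Across the 24 arrays the log2 signals of miR-125b-5p and miR-99a-5p had a Pearson correlation of 0.96 (Spearman 0.97). miR-100-5p had 0.85 with each of the others (Spearman 0.94 with miR-125b-5p and 0.96 with miR-99a-5p), and 0.97 and 0.96 without the array on which it was not detected. The arrays share mice, slides and the scaling, and these values include the shared rise. They also include any binding of miRNAs of like sequence to each other's probes, which was not tested. Within the 12 arrays of zones 5 to 8 the Pearson values were 0.98 between miR-125b-5p and miR-99a-5p, 0.85 between miR-125b-5p and miR-100-5p, and 0.89 between miR-99a-5p and miR-100-5p. Within the 12 arrays of zones 1 to 4 they were 0.41, 0.29 and 0.32 in the same order, and the values with miR-100-5p were 0.74 and 0.62 without the undetected array. After subtraction of each zone's mean the 3 pairs had 0.50, 0.38 and 0.44 (0.49, 0.64 and 0.59 without the undetected array), beside a median of 0.02 over all pairs of the 198 miRNAs detected on every array. This takes out the mean rise, while differences between mice in level and in the size of the rise remain. With each mouse's mean subtracted as well, the 3 pairs had 0.64, 0.42 and 0.59, beside a median of 0.06. The values after subtraction of zone means alone depend on the scaling and on single mice: without scaling the 3 pairs had 0.90, 0.88 and 0.82. Without 1 mouse miR-125b-5p and miR-100-5p had 0.08 (mouse 2 left out) to 0.59 (mouse 3 left out), and miR-99a-5p and miR-100-5p had 0.76 with mouse 1 left out.

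**Figure D3:**
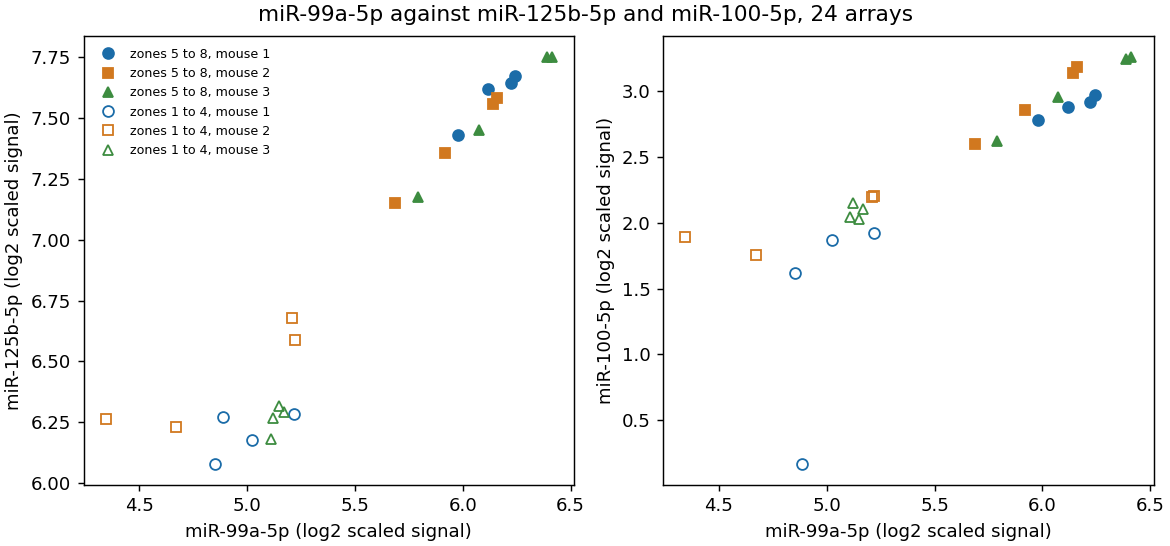
Log2 scaled signal of miR-99a-5p (horizontal) against that of miR-125b-5p (left) and miR-100-5p (right), 1 point per array, filled for zones 5 to 8 and open for zones 1 to 4, with a symbol per mouse. The filled points form a line above and to the right of the open ones, and the lowest open circle on the right is the array on which miR-100-5p was not detected.

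The let-7 miRNAs that neighbour these genes did not pass the test. Of 10 listed partners, which are the other arms of the members' hairpins and the let-7a and let-7c arms, those named for Mirlet7a-1 and Mirlet7c-2 on other chromosomes included, 9 were on the array (let-7c-2-3p was not analysed here) and 2 were detected, let-7c-5p and let-7a-5p, both on all 24 arrays. Of the 339 tested miRNAs 35 (10.3%) were higher and 20 (5.9%) lower in zones 5 to 8 (limma, adjusted p under 0.05), while without scaling 25 were higher and 4 lower, and scaled to the summed signal 36 and 8. A fit with the mouse as block called 45 higher and 50 lower. Against these shares 0 of the 2 partners were called in either direction. The median of their differences was 0.19 log2 units, beside -0.08 over all tested miRNAs.

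let-7c-5p, processed from Mirlet7c-1 beside Mir99a and also from Mirlet7c-2 on chromosome 15, had scaled signals of 452 to 616 in zones 5 to 8 and 367 to 600 in zones 1 to 4. Its difference was 0.14 ± 0.08 log2 units (SE, limma adjusted p = 0.297). let-7a-5p, whose sequence is in the Mirlet7a-2 hairpin in the host gene of Mir100 and Mir125b-1 and which is also listed for Mirlet7a-1 on chromosome 13, had 674 to 880 in zones 5 to 8 and 446 to 888 in zones 1 to 4. Its difference was 0.23 ± 0.11 (SE, limma adjusted p = 0.164), and both signs turned with quantile normalization (-0.15 and -0.07). In both miRNAs the groups overlapped. Each let-7 signal sums over its loci, so a change at 1 locus alone cannot be read from it, and let-7c-5p and let-7a-5p differ at 1 position, G19A.

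Set beside its neighbour on chromosome 16, the difference of miR-99a-5p was larger than that of let-7c-5p by 0.91, 0.96 and 1.00 log2 units in mice 1 to 3. On the same scale miR-125b-5p exceeded let-7c-5p by 1.16, 0.82 and 1.24, and miR-100-5p exceeded let-7a-5p by 1.25, 0.53 and 0.88. Since the 3 miRNAs were chosen for their rise and the let-7 miRNAs were not, values above 0 follow from that choice. The 1.25 of miR-100-5p in mouse 1 includes its undetected array, set to the floor. After subtraction of zone means miR-99a-5p and let-7c-5p had a Pearson correlation of 0.74 over the 24 arrays, and miR-125b-5p and let-7c-5p one of 0.63. miR-100-5p and let-7a-5p had 0.26, with the undetected array of miR-100-5p at the floor. The median over all pairs of the 198 miRNAs detected on every array was 0.02.

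The other arms of the members' hairpins, miR-125b-1-3p, miR-125b-2-3p, miR-99a-3p and miR-100-3p, had a detected signal on 0 of 24 arrays. They gave no reading of which miR-125b gene was in use. miR-351-5p, which has the seed of miR-125b-5p, and miR-10a-5p and miR-10b-5p, which are related in sequence to miR-99a-5p, were also undetected throughout.

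The third cluster, in which Mir99b, Mirlet7e and Mir125a lie together inside Spaca6 on chromosome 17, held 2 arms detected mostly or solely in zones 5 to 8. Of its 6 listed arms 4 were detected on at least 1 array and 3 passed the filter of 6 arrays. miR-125a-5p and let-7e-5p passed it only through zones 5 to 8, where they are high, so their detection and signals are given without a test. In zones 5 to 8 miR-125a-5p had a detected signal on every array (12), with scaled signals of 12.4 to 25.5, and none on the 12 arrays of zones 1 to 4. Its level in zones 5 to 8 was 15.6-fold above the lowest signals detected for any miRNA on the arrays of zones 1 to 4. let-7e-5p had 12 of 12 arrays detected in zones 5 to 8 (11.2 to 22.1) and 4 of 12 in zones 1 to 4 (2.09 to 2.39). All 24 arrays detected miR-125a-3p, and its difference of 0.17 ± 0.26 log2 units (SE) did not pass (limma adjusted p = 0.778). miR-99b-5p, which has the seed of miR-99a-5p, was detected on 1 array, zone 8 of mouse 3, and miR-99b-3p and let-7e-3p on none.

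**Figure D4:**
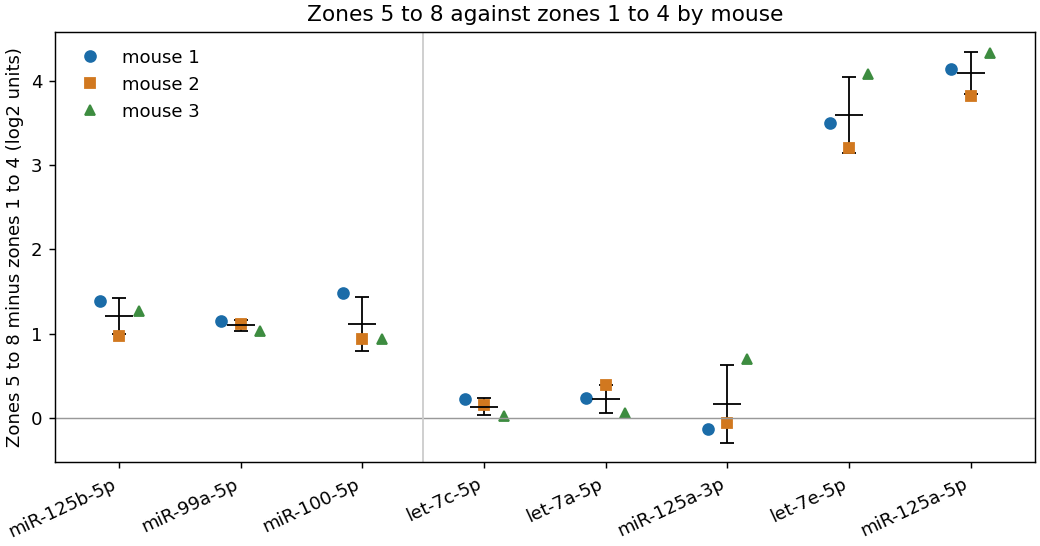
Log2 difference between the mean of zones 5 to 8 and the mean of zones 1 to 4 for the 3 miRNAs (left of the grey line) and the 5 tested relatives, with 1 symbol per mouse and the mean ± SD of 3 mice as black bars. The 3 miRNAs lie between 0.94 and 1.49, let-7c-5p and let-7a-5p between 0.03 and 0.40, miR-125a-3p between -0.13 and 0.70, and let-7e-5p and miR-125a-5p, whose undetected values stand at the floor, between 3.20 and 4.32.

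Probes for miRNAs of like sequence can bind each other's targets, and the part of this in the signals was not tested. The measured signals are given here. Levels of different probes were not put on a common scale, so they do not give the size of that part. The mean scaled signal of miR-125b-5p was higher in zones 5 to 8 than in zones 1 to 4 by 120, 83.9 and 111 intensity units in mice 1 to 3, while miR-125a-5p had a mean signal of 19.8, 16 and 22.5 units in zones 5 to 8. miR-125a-5p was undetected in zones 1 to 4, where miR-125b-5p had mean signals of 73.8, 87.6 and 76.9 units. miR-99b-5p was undetected on 23 of 24 arrays, on all of which miR-99a-5p had a signal. For miR-99a-5p and miR-100-5p, which differ at 1 base, only the array of zone 2 in mouse 1 held one miRNA without the other. It had miR-99a-5p at 29.6 units and miR-100-5p undetected. In zones 5 to 8 of mice 1 to 3 miR-99a-5p had mean signals of 70.7, 63.5 and 72.9 units. miR-100-5p had 7.4, 7.8 and 8.25 there. In zones 1 to 4 the means were 32, 30 and 35.2 for miR-99a-5p, and 2.63, 4.06 and 4.23 for miR-100-5p. The 2.63 of mouse 1 counts the undetected array as no signal. How much of the miR-100-5p signal came from miR-99a-5p was not tested.

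Outside the listed relatives, the miRNAs whose signals followed the mean of the 3 most closely over the 24 arrays, among 193 detected on every array, were miR-30a-5p, miR-30a-3p, miR-23a-3p, miR-122-5p and miR-345-5p. Their Pearson correlations were 0.96, 0.89, 0.88, 0.87 and 0.87, beside a median of -0.15 over the 193. Their changes were smaller than those of the 3 miRNAs, which the choice of the 3 for their rise favours. The log2 difference between zones 5 to 8 and zones 1 to 4 was 0.56 ± 0.07 for miR-30a-5p, 0.63 ± 0.15 for miR-30a-3p and 0.58 ± 0.04 for miR-23a-3p (SD, n = 3 mice). miR-122-5p, the dominant hepatocyte miRNA, had 0.47 ± 0.07 and miR-345-5p 0.56 ± 0.10. After subtraction of zone means the 5 closest were miR-30e-5p (0.76), miR-29a-3p (0.75), miR-30a-5p (0.74), miR-28a-5p (0.71) and miR-103-3p (0.67). miR-28a-5p and miR-103-3p had differences of -0.26 ± 0.10 and -0.07 ± 0.10 log2 units between zones 5 to 8 and zones 1 to 4, so miRNAs that deviated with the 3 within zones did not all share their rise.

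The summed scaled signal of the hepatocyte miRNAs ran from 12380 to 17030 units in zones 5 to 8 and from 7714 to 12990 in zones 1 to 4. Of them, miR-122-5p and miR-122-3p rose (limma adjusted p = 0.000669 and 0.0193). miR-192-5p and miR-194-5p had differences of 0.26 ± 0.30 and 0.22 ± 0.22 log2 units (SD, n = 3 mice) and did not pass (limma adjusted p = 0.141 and 0.161). Over all 339 tested miRNAs 10.3% were called higher. The endothelial miR-126a-3p had a median scaled signal of 1.92 units in zones 5 to 8 (0 to 11.35) and 2.57 in zones 1 to 4 (0 to 11.03), counting undetected as 0. It differed between mice: mouse 1 had 4.08 to 11.35 units, and the highest signals were 2.77 in mouse 2 and 2.04 in mouse 3. In mouse 3 it was detected only in zones 5 to 8. The part of these in the levels of the 3 miRNAs was not tested.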

How the data were processed

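Cy3-labelled RNA of 24 sorted hepatocyte populations was measured on Agilent arrays with 1 colour, per the labels' protocols. For each miRNA the deposited files give an intensity (total gene signal), its error, and a detection call of 1 or 0. The submitters' processing notes name Agilent Feature Extraction for this step. Undetected miRNAs carry a fixed low value in the deposited files, and scaling between arrays by the authors is not given in the sources used here. Control sequences (21) were set aside. Arrays were brought to 1 level on the upper quartile (percentile 75) of the 198 miRNAs that no array lacked, keeping the average of those quartiles as the unit. Values under 1.12 units were set to 1.12 before log2 was taken. The 339 miRNAs detected on at least 6 arrays were tested with limma 3.58.1 in R 4.3.3. Its lmFit and eBayes steps used 8 zone means, zones 5 to 8 minus zones 1 to 4, two-sided. Benjamini-Hochberg was applied over all tested miRNAs, with a threshold of 0.05. The main fit has no term for the mouse. It was checked on simulated data whose arrays were drawn independently, so the check does not cover the correlation within mice. SDs are over mice. The number of arrays limits the precision.

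The members and lists were chosen with earlier results of these data known. Named miRNAs are the members, their listed relatives, and the 5 closest in correlation by each of 2 measures. The mouse number pairs the arrays, since each number is 1 animal: deviations from zone means had a median correlation of 0.610 within mice (lowest 0.254). Alternatives were other scalings, a lower floor, other detection filters, mouse as a block, eBayes with trend, and leaving out each mouse. Figures used matplotlib 3.10.9 in Python 3.11.15.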

Additional observations from a re-analysis of the deposited data

How the results depend on the processing

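The difference between zones 5 to 8 and zones 1 to 4, and zone 8 minus zone 1, kept their sign for the 3 miRNAs under every alternative run. Without scaling the difference between zones 5 to 8 and zones 1 to 4 was 1.20 for miR-99a-5p, and 1.17 scaled to the summed signal. Zone 8 minus zone 1, which was 1.33, 1.16 and 1.36 for miR-99a-5p, miR-100-5p and miR-125b-5p, was 1.73 for miR-125b-5p and 1.53 for miR-100-5p without scaling, and 1.57 and 1.37 scaled to the summed signal. Leaving out each mouse gave 1.12 to 1.33 for miR-125b-5p, 1.07 to 1.13 for miR-99a-5p and 0.94 to 1.22 for miR-100-5p between zones 5 to 8 and zones 1 to 4. The correlation of miR-125b-5p with miR-99a-5p after subtraction of zone means was 0.90 without scaling, 0.75 scaled to the summed signal, 0.44 with quantile normalization and 0.36 to 0.72 without 1 mouse, and that of miR-99a-5p with miR-100-5p was 0.82 without scaling and 0.41 to 0.76 without 1 mouse. For miR-125b-5p with miR-100-5p it was 0.88 without scaling, 0.27 with quantile normalization and 0.08 to 0.59 without 1 mouse.

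The count of higher miRNAs was 22 over the 198 miRNAs detected on all arrays, and 23 to 29 without 1 mouse. The count of lower ones was 4 without scaling, 8 scaled to the summed signal and 7 to 15 without 1 mouse. With mouse as a replicate block 45 were higher and 50 lower, and no call of a listed relative changed. Of the third cluster, let-7e-5p and miR-125a-5p passed limma's threshold, which the filter and the floor fix. With all 24 arrays required they were not tested and 0 arms were called. With a floor 4 times lower their differences were 4.93 and 6.09, against 3.59 and 4.09, which follows from the undetected values. With quantile normalization let-7c-5p and let-7a-5p had -0.15 and -0.07, and miR-125a-3p had -0.10 without mouse 3 (to 0.32 without mouse 1). The causes were not tested otherwise. Leaving out each mouse for the differences between the 3 miRNAs, whose values stand beside them, and leaving out the array without miR-100-5p, were chosen after seeing the data.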
